A study of Drosophila melanogaster with 2 samples.

Results

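NC2beta peaks inside introns of protein-coding genes, far from any annotated coding start, were taken from a chromatin immunoprecipitation with sequencing (ChIP-seq) data set of Drosophila melanogaster embryos. The embryos were whole, of mixed sex and 0 to 24 h old, and came from a transgenic line with GFP fused to the C terminus of NC2beta, which was pulled down with an anti-GFP antibody. There was 1 group with 2 biological replicates, numbered 1 and 3, and no untagged group was analysed here. Of the 3897 peaks in the authors' optimal set, 834 (21.4%, 95% exact binomial interval 20.1 to 22.7) had a summit more than 1000 bp from every protein-coding transcription start site (TSS), inside a protein-coding gene and in no annotated exon. These 834 are called intronic distal peaks. For comparison, 412 summits (10.6%) met the same distance rule outside genes and exons (intergenic distal peaks), and 1956 (50.2%) lay within 250 bp of a coding TSS (promoter peaks). Whole embryos mix all cell types and stages of embryogenesis, so a peak cannot be assigned to a cell type or a stage.

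NC2 is a cofactor of NC2alpha and NC2beta (DRAP1 and Dr1 in mammals) that binds the TATA-binding protein on DNA. In fly extracts it is known to repress core promoters with a TATA box and to activate those with a downstream promoter element. Introns of Drosophila developmental genes are known to hold enhancers, which can themselves be sites where RNA polymerase II starts transcription, and alternative or unannotated promoters. Peaks were ranked by the authors' height, a signal value whose unit is not given. A relative height is the height of the nearest region in a replicate divided by the median over the optimal peaks in that replicate, which was 68.8 in replicate 1 and 46.1 in replicate 3.

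The sequences of 5 peaks are shown, from 130 bp before to 130 bp after the summit on the plus strand of Release 6 (dm6), read from the RefSeq genome. Capitals mark the six-base word TCAGTG or its complement CACTGA where it reads away from the summit and starts 25 to 125 bp from it, a pattern described further on. The ush (chr2L:480961-481221) and CG11050 (chr2L:6612582-6612842) sequences are shown because they carried the highest intronic distal peaks, the other 3 because they hold the word on both sides of the summit. These are smash (chr3R:4663130-4663390), Snoo (chr2L:7964669-7964929) and CG32264 (chr3L:3802776-3803036).
ush: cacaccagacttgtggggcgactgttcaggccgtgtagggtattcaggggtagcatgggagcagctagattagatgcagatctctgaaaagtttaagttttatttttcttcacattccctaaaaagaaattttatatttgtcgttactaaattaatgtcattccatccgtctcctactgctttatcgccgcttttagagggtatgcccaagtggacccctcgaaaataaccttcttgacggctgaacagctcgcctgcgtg
CG11050: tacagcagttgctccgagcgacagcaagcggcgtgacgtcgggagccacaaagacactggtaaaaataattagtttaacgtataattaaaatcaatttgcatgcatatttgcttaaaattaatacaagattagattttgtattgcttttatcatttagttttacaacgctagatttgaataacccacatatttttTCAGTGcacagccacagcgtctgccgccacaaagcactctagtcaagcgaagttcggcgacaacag
smash: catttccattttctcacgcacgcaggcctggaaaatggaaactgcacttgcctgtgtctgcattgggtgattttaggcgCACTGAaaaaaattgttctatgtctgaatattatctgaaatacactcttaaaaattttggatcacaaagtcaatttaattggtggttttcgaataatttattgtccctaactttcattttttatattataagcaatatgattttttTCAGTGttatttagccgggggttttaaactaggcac
Snoo: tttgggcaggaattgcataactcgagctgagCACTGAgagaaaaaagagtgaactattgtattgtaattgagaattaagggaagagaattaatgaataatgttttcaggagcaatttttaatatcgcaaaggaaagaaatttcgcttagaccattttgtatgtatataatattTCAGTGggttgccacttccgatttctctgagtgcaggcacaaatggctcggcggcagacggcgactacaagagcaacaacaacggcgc
CG32264: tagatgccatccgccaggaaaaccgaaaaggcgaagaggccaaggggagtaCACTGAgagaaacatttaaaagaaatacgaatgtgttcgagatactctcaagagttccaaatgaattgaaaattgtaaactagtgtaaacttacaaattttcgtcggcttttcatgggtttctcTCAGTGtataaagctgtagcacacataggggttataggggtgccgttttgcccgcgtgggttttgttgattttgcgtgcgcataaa
In each of the 3 last sequences the words stand on either side of the summit and point outward. The word started 46 bp left and 95 bp right of the summit at smash, 94 and 43 bp at Snoo, and 74 and 45 bp at CG32264. The ush sequence holds no such word, and CG11050 holds 1, to the right. The annotated CG11050 intron ends at chr2L:6612780, inside that word, so there the word spans the downstream splice site of the intron.

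The highest intronic distal peak was the highest of all optimal peaks and lay in the first intron of ush (FBgn0003963), a gene of a zinc-finger cofactor of GATA factors. It covered chr2L:480866-481292 with a height of 1496, and its relative height was 12.6 in replicate 1 and 13.7 in replicate 3 (mean 13.1 ± 0.823, SD, n = 2). Its nearest coding TSS, 1403 bp away, was that of cbt, which encodes another zinc-finger transcription factor. The next peak (height 1141) lay in CG11050 at chr2L:6612497-6612920, with relative heights of 9.79 and 10.2 in replicates 1 and 3. Its intron was only 140 bp long, the shortest of any intronic distal peak, so the 424 bp interval reached into both flanking exons. The summit lay 1025 bp from the nearest coding TSS.

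Below these stood cno, which encodes the junction protein Canoe (afadin in mammals), with relative heights of 6.55 and 8.40 in replicates 1 and 3. CG32772 followed at 6.06 and 6.81. Tlk, which encodes the Tousled-like kinase of chromatin assembly, had 5.90 in replicate 1 and 6.52 in replicate 3. These 5 peaks stood above all other intronic distal peaks in both replicates. Trl, the gene of GAGA factor, had a peak in an intron of 3233 bp with relative heights of 5.07 and 4.74. The remaining peaks of the 12 highest lay in NFAT, Raf, for, CG9837, fz and CG3726, with heights from 522 at NFAT to 470 at CG3726 and relative heights between 3.65 and 4.83 in either replicate. Among them, for encodes a cGMP-dependent protein kinase and fz the Wnt receptor Frizzled. All 12 lay among the 3897 highest regions of both replicates. All 12 lay in a first or second intron, and all but fz within 2313 bp of a coding TSS. The fz summit was 25267 bp from the nearest one, that of CG13482.

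Most intronic distal peaks were far lower. The median height was 116 (quartiles 90.1 and 159, range 74.1 to 1496), against 111 for intergenic distal peaks and 110 for promoter peaks. Median relative heights were 0.992 in replicate 1 and 1.04 in replicate 3. For intergenic distal peaks they were 1.02 and 0.980, and for promoter peaks 0.991 and 0.965, so the classes lay close together in both replicates. With the optimal peaks ranked by height and cut into 5 parts, intronic distal peaks made up 17.3% of the highest part, 27.3% of the next, then 21.5% and 20.8%, and 156 of the 780 in the lowest. Among the 30000 pooled regions, which contain background, regions that met the same location rule made up 29.0% of the lowest 10000. The interval was 400 bp wide for 622 peaks, with the summit at its centre, and narrower for 210, whose median height was 198 against 101 for those of 400 bp.

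Both replicates held a region within 250 bp of the summit for all 834 peaks. A region among that replicate's own 3897 highest lay there in both replicates for 652 (78.2%, 95% exact interval 75.2 to 80.9), where the share over all optimal peaks was 75.3%. For intergenic distal peaks it was 308 of 412 (74.8%), which did not pass the test (odds ratio 1.21, Fisher's exact test, two-sided, adjusted p = 0.197). For promoter peaks it was 1439 of 1956 (73.6%), and intronic distal peaks exceeded this (odds ratio 1.29, Fisher's exact test, adjusted p = 0.0200). For the 695 optimal peaks in none of these classes it was 77.0% (73.7 to 80.1), near that of intronic distal peaks, and this difference was not tested. Taken singly, the shares for intronic distal and promoter peaks were 88.8% and 90.0% in replicate 1 and 88.1% and 82.4% in replicate 3, so intronic distal peaks were higher in replicate 3 alone. Relative heights lay within 1 log2 unit of each other for 804 of the 834 peaks (96.4%, against 93.9% of all optimal peaks). The optimal set was chosen for likeness of the replicates, so part of this is built in.

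**Figure D1:**
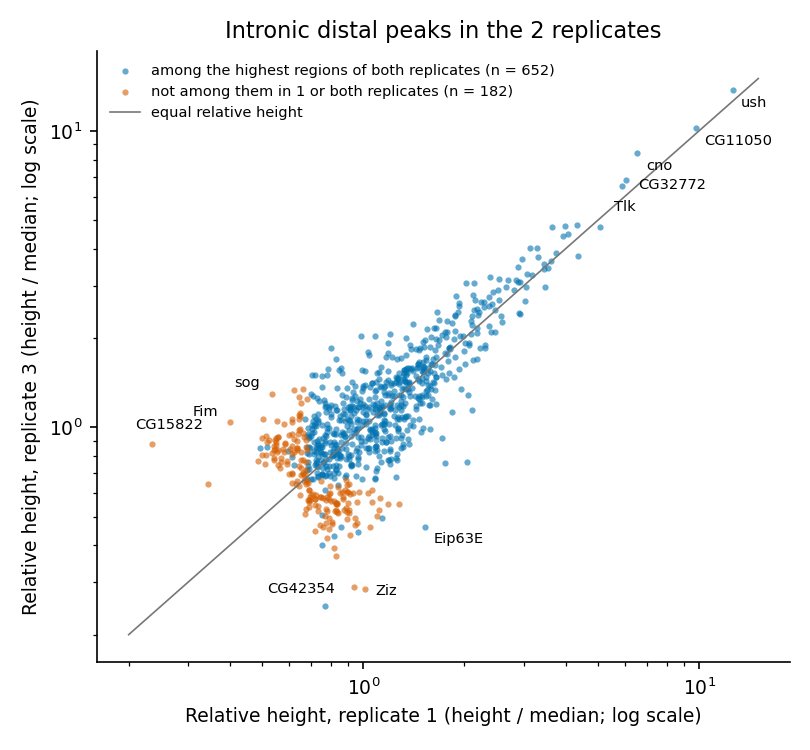
Relative height of the 834 intronic distal peaks in replicate 1 (x axis) and replicate 3 (y axis), both on log scales, with 1 point per peak and a line of equal height. Points for ush, CG11050, cno, CG32772 and Tlk stand apart at the upper right, and the points that were not among the highest regions of both replicates lie at the low end.

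Of the 6 peaks named for the largest differences between replicates, 5 ranked from 2626 to 3867 by height among the 3897 optimal peaks, and Eip63E ranked 663. Toward replicate 1 stood Ziz (1.01 in replicate 1 and 0.286 in replicate 3), Eip63E (1.53 and 0.463) and CG42354 (0.939 and 0.290). Toward replicate 3 stood CG15822 (0.235 and 0.882), Fim (0.402 and 1.04) and sog (0.534 and 1.30), which encodes an extracellular antagonist of Dpp. With the highest region within 250 bp in place of the nearest, Eip63E had 1.53 in replicate 1 and 2.12 in replicate 3, and its direction turned. The same change moved Ziz to 1.01 and 0.616, and CG15822 to 0.613 and 0.882. CG42354 and Fim kept their values and sog had 0.549 and 1.30.

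The position of the peaks within their genes was uneven. Of the 834 peaks, 400 (48.0%, 95% exact interval 44.5 to 51.4) lay in a first intron, counted along the longest transcript with an intron over the summit. First introns held 28.3% of the intronic sequence that met the same rule (eligible sequence, 44.7 Mb in all). The density was 31.6 peaks per Mb of eligible sequence in first introns (95% exact Poisson interval 28.6 to 34.9), 21.7 in second introns (19.2 to 24.5), 11.8 in introns of rank 3 (from 68 peaks) and 7.20 in later ones (5.86 to 8.75). The 95% intervals of these 4 densities did not overlap. These intervals, and those of densities and density ratios below, treat peaks as independent. Since 523 of the 834 peaks shared a host with another, the intervals are too narrow. Within the intron the density was 22.9 per Mb in the second of 5 equal parts counted from the 5′ end and 14.8 in the last. The introns were long, with a median of 13694 bp (quartiles 6823 and 28950, range 140 to 132737). Per Mb of eligible sequence, introns of 10000 to 20000 bp held 23.7 and those of 5000 to 10000 bp held 157 peaks in 6.03 Mb, against 9.38 in introns of up to 2000 bp and 11.2 in those over 50000 bp.

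Distance to the nearest coding TSS moved with both intron rank and density. The median distance was 3940 bp (quartiles 2008 and 7828, largest 76900), and the nearest coding TSS belonged to the host gene for 664 peaks (79.6%). In eligible introns the density was 34.2 per Mb between 1000 and 2000 bp from a TSS, with 282 peaks in 11.3 Mb up to 5000 bp, then 20.1 per Mb up to 10000 bp, 11.7 up to 20000 bp and 5.60 beyond. In each of these 5 distance classes first introns had a higher density than later introns. It was 45.6 against 24.1 in the nearest class, 34.1 against 19.5, 28.0 against 16.6, 16.6 against 10.3, and 14.9 against 4.73 beyond 20000 bp. The intervals of first and later introns overlapped between 10000 and 20000 bp (11.1 to 23.9 against 7.99 to 13.2), and not in the other 4 classes. The share of peaks in first introns was 62.5% in the nearest class, where first introns held 46.9% of eligible sequence, and 22.6% beyond 20000 bp, where they held 8.51%.

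Against sequence between genes, eligible introns held 18.7 peaks per Mb and eligible intergenic sequence 12.8 (11.6 to 14.1, over 32.2 Mb), a ratio of 1.46 (95% exact interval 1.29 to 1.65). The ratio was 1.41 between 1000 and 2000 bp from a coding TSS, 1.49 up to 5000 bp and 1.49 up to 10000 bp. Between 10000 and 20000 bp it turned round, to 0.709 (0.531 to 0.952), with 94 intronic and 101 intergenic peaks, and beyond 20000 bp it was 2.38. Later introns alone had densities close to those of intergenic sequence in the nearest class, at 24.1 and 24.3 per Mb. By chromosome arm the density ranged from 16.7 per Mb on 3R to 23.3 on X. Chromosome 4 held no intronic distal peak in 0.346 Mb of eligible sequence, which allows a density of up to 10.7 per Mb. Of the 834 peaks, 9 lay within 250 bp of the TSS of a noncoding gene, 8 of them annotated as ncRNA and 1 as tRNA. The rule leaves out summits in exons of noncoding genes, which can lower this count. The share of eligible sequence that near to noncoding starts was not computed. A mobile element was annotated in the 200 bp around 1 summit of 834, and soft-masked repeats covered 19.8% of these windows, against 20.1% of eligible intronic sequence.

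**Figure D2:**
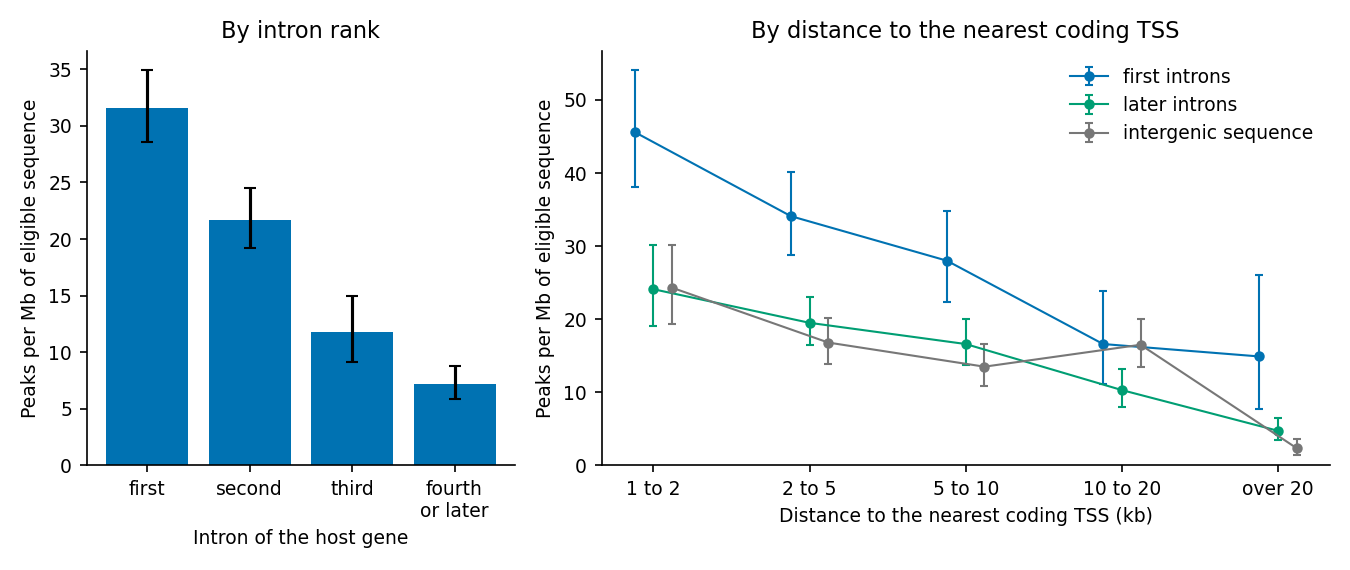
Peaks per Mb of eligible sequence by rank of the host intron (left, bars) and by distance to the nearest coding TSS (right, points for first introns, later introns and intergenic sequence), with 95% exact Poisson intervals. Bars fall from 31.6 in first introns to 7.20 in introns of rank 4 or later, and first introns lie above later introns in all 5 distance classes, with overlapping intervals between 10000 and 20000 bp.

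Many host genes held several peaks. Assigned to the shortest gene around each summit, the 834 peaks lay in 498 host genes. Of these, 187 (37.6%) held at least 2 peaks and together 523 peaks (62.7%), and 117 of them held all theirs in a single intron. Numbers per host were 1 in 311 genes, 2 in 105, 3 in 45, 4 in 23 and 5 or more in 14. Neighbouring summits in a host were a median of 5418 bp apart (quartiles 1758 and 13672), and 13 neighbouring intervals overlapped, and whether these are separate sites was not tested.

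Raf, kirre and sbb held 8 peaks each. Raf (FBgn0003079) encodes the MAP kinase kinase kinase of receptor tyrosine kinase signalling, and all 8 of its peaks lay in 1 intron of 43637 bp, from chrX:2297571-2297869 to chrX:2329345-2329744. In order along the gene its relative heights were 3.99, 1.78, 2.09, 1.23, 1.92, 0.513, 0.972 and 1.54 in replicate 1. In replicate 3 they were 4.76, 1.77, 2.06, 1.33, 1.57, 0.804, 0.828 and 1.69. The first peak was the highest in both replicates, and number 6 was the lowest. Raf had 320 peaks per Mb of its eligible sequence, against 27.2 for kirre, which had 294 kb of it. At kirre, which encodes an immunoglobulin adhesion protein of muscle founder cells, 7 of the 8 peaks were spread over 1 intron of 117679 bp and the other in one of 132044 bp. Their relative heights ran from 0.498 to 2.54 in replicate 1 and from 0.520 to 3.16 in replicate 3. The highest of them lay nearest to a coding TSS, at 2337 bp. At sbb, the gene of the corepressor Scribbler, all 8 lay in 1 intron of 65649 bp, with heights from 81.3 to 196. Of the 8, 3 were not among the highest regions of both replicates, and 2 of these 3 overlapped one another.

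ush and rdx followed with 7 peaks each. All 7 at ush lay in its first intron of 49060 bp, and the other 6 had heights from 124 to 249, far below the highest one. rdx encodes an adaptor for ubiquitination of the Hedgehog pathway factor Ci, and its peaks ranged from 81.4 to 340. Hr4, the gene of a nuclear receptor of the ecdysone response, held 6 peaks in 3 introns, the highest with relative heights of 3.55 and 3.45 in replicates 1 and 3. shn and jing encode zinc-finger proteins, the first acting in Dpp signalling, and held 6 each with heights from 74.2 to 167. An optimal peak also lay at a TSS of ush, sbb and shn, and none lay at a TSS of Raf, kirre, rdx, Hr4 or jing.

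**Figure D3:**
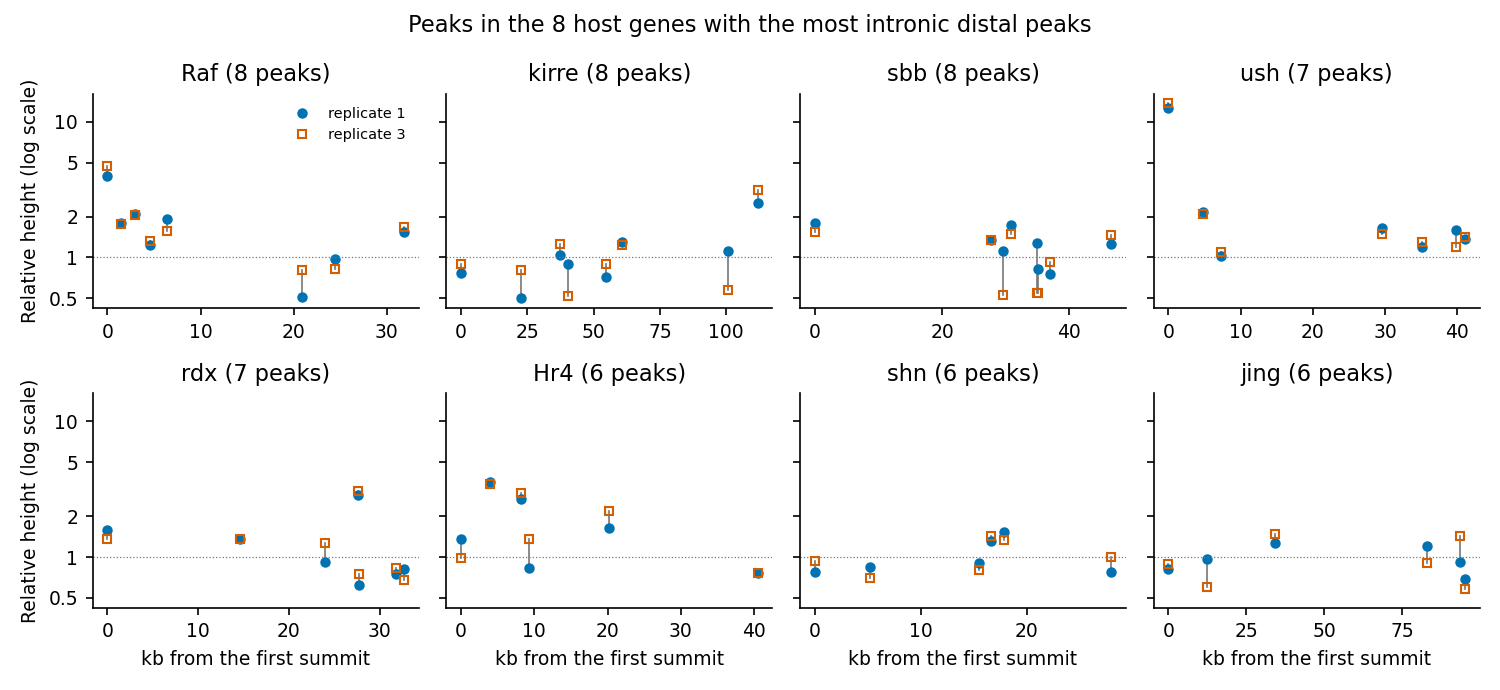
Relative height (log scale) of each intronic distal peak in the 8 host genes with the most peaks, in replicate 1 (filled circles) and replicate 3 (open squares), against the distance in kb from the gene's first summit. Grey lines join the replicates of a peak and the dotted line marks the median of the optimal peaks, and the first ush peak stands highest at 12.6 and 13.7.

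Host genes more often had a peak at their promoter as well. For this test every gene around a summit counted as a host, which gave 517 hosts among 6980 protein-coding genes with eligible intronic sequence (7.41%). An optimal summit within 250 bp of a TSS of the gene was found for 207 of the 517 hosts (40.0%) and for 1319 of the 6463 others (20.4%), where the share over all 6980 was 21.9%. Hosts had more eligible sequence than the others (median 14.0 against 0.473 kb), so genes were compared within 3 classes of its length. In the class of longest sequence, 191 of 477 hosts (40.0%) and 312 of 1850 others (16.9%) had a bound promoter. In the middle class the counts were 16 of 40 hosts (40.0%) and 527 of 2286 others (23.1%), and the class of shortest sequence held no host. The common odds ratio was 3.15 (95% interval 2.55 to 3.90, exact conditional test, two-sided, p = 3.0e-26). It was 2.90 with genes also classed by their number of TSSs, an alternative chosen after seeing the data. Genes are not biological replicates, and whether open chromatin at a gene gives both kinds of peak was not tested, since the control alignment was not analysed here.

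Host genes were then grouped by lists of known function, described by counts and by density beside the 18.7 peaks per Mb of all eligible introns. In these lists, as in the promoter test, a peak counted for every gene around its summit. A gene that overlaps another can thus have more peaks here than by the shortest-gene rule. By that rule Trl held 1, and Hr3 and Antp held none. The lists were chosen with earlier results of these data known. Their densities were not matched for intron length or for distance to a coding TSS, with which density also moved. The Polycomb and trithorax group, chromatin regulators that keep developmental genes off or on, had 18 peaks in 7 of 30 genes with eligible sequence, or 102 per Mb (60.7 to 162). They were led by jing with 6, Trl with 3 (highest 569) and trx, a histone methyltransferase gene, with 2 (highest 343). The TGF-beta pathway had 16 peaks in 7 of 15 genes, or 85.6 per Mb (48.9 to 139). Its hosts included shn with 6 peaks, Dad, which encodes the inhibitory Smad, with 3 (highest 306) and cv-2, which encodes a secreted BMP-binding protein, with 2 (highest 330). The EGFR and FGF pathway had 24 peaks in 9 of 24 genes, or 64.5 per Mb (41.3 to 96.0). Besides the 8 of Raf there were 4 in S, which encodes the Star protein needed to release the ligand Spitz, and 4 in pnt, an Ets transcription factor gene (highest 362 and 293).

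Densities above that of all eligible introns, with lower bounds above 18.7, were also found for the Wnt and Hedgehog pathways (36.2 per Mb, 16 peaks in 8 of 26 genes) and nuclear receptors with the ecdysone response (33.6, 20 in 6 of 21). In the Wnt and Hedgehog list, fz held 4 peaks, dlp, which encodes a glypican, 3 and ptc, the Hedgehog receptor gene, 2. Eip75B, a nuclear receptor gene induced by ecdysone, held 5 peaks with heights up to 200, and Hr3 held 3 with heights up to 369. Members of a list share hosts of many peaks, and the Poisson intervals treat peaks as independent, so they are too narrow here.

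For 5 lists the interval held the density of all eligible introns. Patterning transcription factors had 30.0 per Mb (11 peaks in 4 of 30 genes), among them 7 in ush, 2 in Mef2 and 1 in grh. The Notch pathway had 6 peaks in 0.240 Mb (in 3 of 17 genes), with 3 in mam, the gene of the coactivator Mastermind, 2 in N and 1 in neur. Homeotic genes and their cofactors had 23.2 (9 peaks in 4 of 12), with 4 in Antp and 2 each in lab and hth. Axon guidance and cell adhesion had 20.6 (39 peaks in 16 of 47), among them 9 in kirre, counted with the peak of CG32795, which lies inside it, and 4 each in ed and NetA, an adhesion protein gene and a Netrin gene. Muscle structure had 2 peaks (10.8 per Mb, 1.31 to 39.0), in how and Msp300.

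Lower densities were found for 2 lists. RNA binding and translational control had 10 peaks in 1.28 Mb (7.80 per Mb, 3.74 to 14.3), among them 3 in bru2 and 2 each in Rbfox1 and shep. Ion channels and synapse genes had 2 peaks in 1.14 Mb (1.76 per Mb, 0.213 to 6.35), 1 each in the calcium channel gene Ca-beta and the glutamate receptor gene Nmdar1, although 44 of these genes had eligible sequence. Ribosomal protein, mitochondrial ribosomal protein, proteasome and cuticle genes held none, and their eligible sequence came to at most 0.0379 Mb, so their upper limits of 97.2 per Mb or more show no difference from 18.7.

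**Figure D4:**
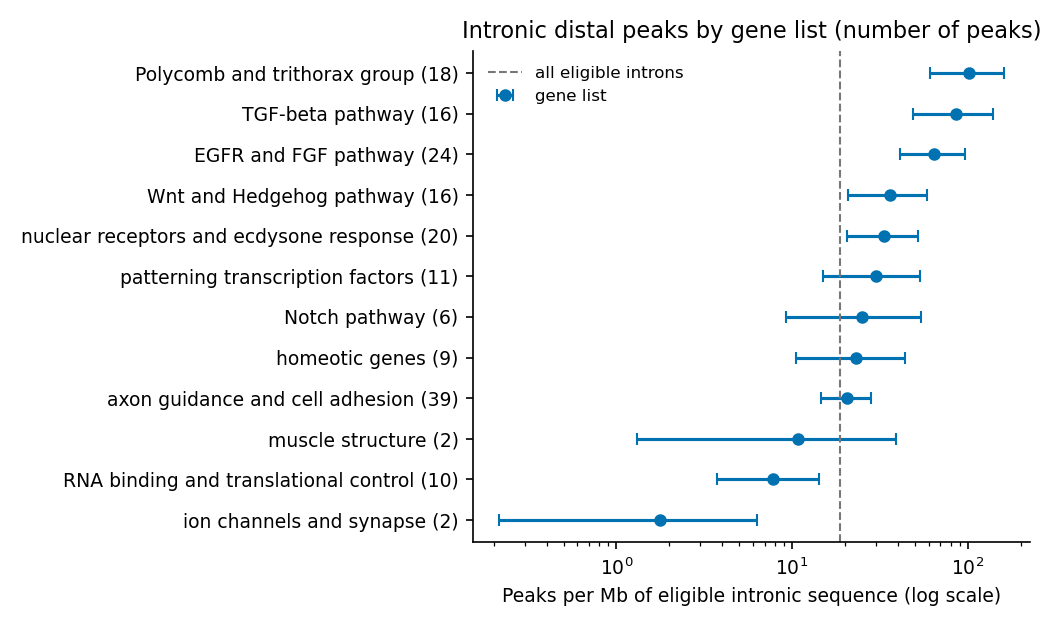
Intronic distal peaks per Mb of eligible intronic sequence (log scale) for 12 gene lists that held any, with 95% exact Poisson intervals and the number of peaks in brackets. The dashed line marks 18.7 per Mb for all eligible introns, with the Polycomb and trithorax group highest at 102 and ion channels and synapse genes lowest at 1.76.

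The sequence at the summits was AT-rich. In the 200 bp around the summit the G + C content averaged 36.7% ± 5.83 (SD over 834 peaks), against 41.2% in a 200 bp window centred 500 bp to the right of the same summit. For intergenic distal peaks the values were 37.1% and 41.2%. The side window was not held to the location rule of the summits and can fall in an exon. How much this adds to differences between summit and side windows was not tested. Each of 20 motifs was sought on both strands in both windows, and 5 of the 20 (25%) differed by an exact McNemar test, two-sided, adjusted over the motifs. GATA motifs (AGATAA and the same with T first or G last) were found at 41.4% of summits and in 31.8% of side windows (exact test, adjusted p = 5.2e-04). The TATA box (TATAAA) was at 30.5% and 23.6% (exact test, adjusted p = 0.00866). Read backwards, which keeps the base content, the GATA letters were at 39.4% and 29.6%, and those of the TATA box at 47.8% and 33.5%. Summits exceeded the side windows by as much or more with the letters reversed. In contrast, 3 motifs with more G or C were rarer at summits. These were the Pho motif (GCCATT, 8.75% and 15.3%, adjusted p = 5.2e-04), the motif of Scalloped, the fly TEAD factor (GGAATG, 50 and 89 of the 834 windows, adjusted p = 0.00504) and the Twist E-box (CACATG, 7.55% and 11.3%, adjusted p = 0.0474), each by exact McNemar test. Read backwards, the Pho letters were at 2.76% of summits and in 3.60% of side windows, and the Scalloped letters at 4.56% and 2.88%. Those of the Twist E-box, which then read GTACAC, were at 13.8% and 4.68%. The general E-box (CANNTG, which CACATG belongs to) was at 65.1% of both windows. The initiator (TCAGTT or TCATTT, or either with C last) was at 46.6% and 44.7%, and GAGAGA at 14.3% and 12.4%, and neither passed the test. With only the highest peak of each host 1 of the 20 motifs was called, and GATA (adjusted p = 0.388) and the TATA box (adjusted p = 0.0582) were not (exact McNemar test). The ratio of windows with the TATA box only at the summit to those with it only at the side was then 1.51, against 1.43 over all peaks. The TATA box was also not called beyond 2000 bp from TSSs (exact test, adjusted p = 0.0601) or in the highest 50% (exact test, adjusted p = 0.239). The Scalloped motif was not called with the side window at 1000 bp (exact test, adjusted p = 0.304) or with 1 peak per host (exact test, adjusted p = 0.0852). By the exact McNemar test the Twist E-box was also lost without replicate 1 (adjusted p = 0.0905) and without replicate 3 (adjusted p = 0.463).

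Compared with promoter peaks, 9 of the 20 motifs (45%) differed in the summit window by Fisher's exact test, two-sided and adjusted over the motifs. The DNA replication-related element DRE (TATCGATA) was in 1 of 834 intronic distal peaks (0.120%) and in 10.7% of promoter peaks, and Motif 7 in 0.959% and 13.5%. Motif 1 was in 0.120% and 5.37%, and Motif 6 in 0.240% and 1.69%. The BEAF-32 motif (CGATA, which DRE contains) was in 20.4% and 46.2%. These 5 elements of core promoters and domain borders were all rarer at intronic distal summits, with adjusted p from 2.1e-38 to 0.00165 (Fisher's exact tests). In the other direction, GAGAGA was in 14.3% of intronic distal and 8.08% of promoter peaks, GATA in 41.4% and 30.2%, the initiator in 46.6% and 40.4%, and runs of 8 A in 16.2% and 9.61%. The G + C content around the summit averaged 39.8% for promoter and 36.7% for intronic distal peaks. The comparison was not matched for base content, so its part in these differences was not tested. Compared with intergenic distal peaks only 1 of the 20 (5%) differed, the E-box, in 65.1% of intronic and 55.6% of intergenic distal peaks (Fisher's exact test, adjusted p = 0.0251). No motif passed that comparison without replicate 3, where 5 had an unadjusted p under 0.05, or beyond 2000 bp from TSSs, where 3 did. The Zelda motif (CAGGTAG) was at 1.08% of intronic distal summits, against 0.665% of promoter and 1.46% of intergenic distal summits, with no call.

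All 2080 words of 6 bases were compared in the same way, each together with its complement. At adjusted p under 0.05 (exact McNemar test, two-sided), 167 words (8.03%) were more common at summits and 206 (9.9%) less common. Base content ran through both groups, since 82.6% of the higher words had at most 2 G or C and 81.6% of the lower words at least 4, where each kind makes up 34.6% of all words. Of the 6 higher words with the smallest p, AGTGTA and AATATT have at most 2 G or C and the others 3. AGTGTA was at 20.3% of summits and in 5.76% of side windows (exact test, adjusted p = 2.8e-15), and ACAGTG at 22.3% and 8.03% (exact test, adjusted p = 9.5e-14). ACACTG was at 21.3% and 7.31%, TCAGTG at 20.5% and 7.67%, and GTACAC at 13.8% and 4.68%. AATATT was at 30.0% and 16.8%. Several overlap one another, since ACACTG read on the other strand is CAGTGT, which shares CAGTG with TCAGTG and AGTGT with AGTGTA. Read backwards the first 5 of these words were no more common at summits than to the side, for example 9.95% and 11.2% for AGTGTA. In all 200 bp tiles of eligible intronic sequence, TCAGTG was present in 8.20%, near its share in the side windows. At intergenic distal summits AGTGTA was at 26.2%, ACAGTG at 18.4%, ACACTG at 21.8%, TCAGTG at 23.3%, GTACAC at 13.8% and AATATT at 23.8%. At promoter summits the shares were 10.2%, 16.6%, 24.2%, 13.4%, 6.85% and 21.0%, in the same order. The words were thus not particular to intronic distal peaks. The leading lower words were CCACCG (2.28% and 8.15%), CCACGC (1.80% and 7.19%), CCATCG (3.60% and 9.83%), CCCCCG (1.80% and 7.07%), GCCTCC (1.92% and 7.07%) and CCTCCG (1.56% and 6.24%). With only the highest peak of each host, 98 words passed as higher and 95 as lower, and in the highest 50% of optimal peaks 70 and 48.

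The leading words had a direction. TCAGTG, chosen after these values were seen, begins with the TCAGT of the initiator, the element over many fly transcription starts. It ends in G, so it is not among the initiator words sought above. Whether it acts as an initiator was not tested. How many of its sites lie at a splice site, as at CG11050, was not counted. Counted from the summit to its first base, 174 TCAGTG sites lay 25 to 125 bp away and read away from the summit, against 41 that read toward it at the same distance. At 300 to 400 bp the counts were 26 and 33. The outward sites were spread over 155 peaks (18.6%, 95% exact interval 16.0 to 21.4) in 133 host genes, and inward sites over 39 peaks (4.68%, 3.35 to 6.34). The median distance was 71.0 bp (quartiles 51.2 and 89.8). At intergenic distal peaks the shares were alike, with 21.8% outward and 4.85% inward. At promoter peaks, whose summits were within 250 bp of annotated starts, they were 6.39% outward and 6.08% inward. The intervals of the outward share did not overlap between intronic distal and promoter peaks (16.0 to 21.4 against 5.35 to 7.57), and did between intronic and intergenic distal peaks (17.9 to 26.2). The window of 25 to 125 bp was also chosen after seeing these values, so this contrast describes them and is no independent test.

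Outward words stood on both sides of the summit at 17 peaks, as in 3 of the sequences shown, and on 1 side at 138. Of the 174 outward sites, 82 (47.1%) lay on the strand of the host gene and 92 on the other. The bases around the word were uneven too. Of the 12 bases before it 68.8% were C or T, against 53.9% before 265 TCAGTG sites elsewhere within 390 bp of the same summits. The base 6 before the word was T at 77.6% of outward sites, the next at 79.9% and the one after at 80.5%. TA followed the word at 31.0% of outward and 12.8% of other sites. In the smash sequence a run of T stands directly before the word on both sides, read as A after CACTGA on the left. Of the 155 peaks, 1 lay within 250 bp of an annotated noncoding start, a count that the exon rule can lower. A mobile element was in the summit window of 1.

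Peaks with an outward word were set beside the others by description only, and no difference was tested. Their median height was 125, against 114 for the 679 without, and 82.6% against 77.2% lay among the highest regions of both replicates. Of them 51.6% lay in first introns, against 47.1% of those without, and their G + C content was 34.8% against 37.1%. The share with an outward word was 21.1% among the 441 intronic distal peaks in the higher 50% of the optimal set, with 2.95% inward. In the highest regions of replicate 1 alone it was 17.3%, with 4.79% inward, and in those of replicate 3 alone 16.5%, with 4.76%. The other leading words kept to a direction at distal peaks as well, AATATT aside. AGTGTA read outward at 16.4% of intronic distal peaks and inward at 5.52%, and CACTGT, the complement of ACAGTG, outward at 17.4% and inward at 7.19%. At intergenic distal peaks AGTGTA read outward at 27.2%, with an interval (22.9 to 31.8) above that of intronic distal peaks (14.0 to 19.1), and CACTGT at 12.4% (9.36 to 16.0, against 14.9 to 20.1). AATATT is its own complement and so has no direction, and gave 208 peaks outward and 217 inward.

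**Figure D5:**
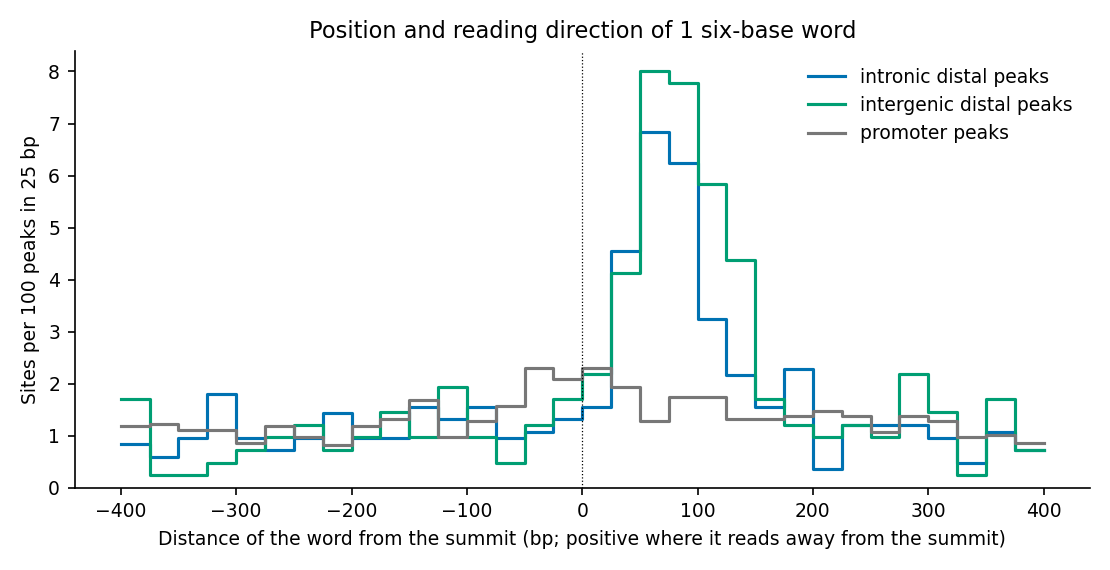
Sites of the six-base word TCAGTG per 100 peaks in bins of 25 bp, by distance of its first base from the summit (bp, positive where the word reads away from the summit), for intronic distal, intergenic distal and promoter peaks. Both distal classes rise between 25 and 125 bp on the outward side, to 6.83 sites per 100 intronic distal peaks at 50 to 75 bp, where promoter peaks show no such rise.

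At the edge of the distance rule, wake (summit 1003 bp from the nearest coding TSS, height 135) and Src64B (1005 bp, height 102) were just inside. Just outside, otherwise meeting the rule, were fray (997 bp, height 194) and mld (997 bp, height 80.8).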

How the data were processed

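Chromatin from whole embryos of the NC2beta-GFP line was sonicated to 200 to 800 bp and immunoprecipitated with an anti-GFP antibody, per the labels, with biological replicates 1 and 3. The deposited lists hold regions with a summit and a height, a signal value that the authors assigned to each region, and its unit and normalization are not stated in the file headers. Neither aligner nor caller is given in the sources used here. The control alignment and the read depth were not analysed here, so no counting interval of a height can be given. The optimal set holds 3897 peaks that the authors kept by the irreproducible discovery rate, as deposited. Each replicate and the pool also have a list of 30000 regions, which contain background.

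Summits in dm6 were classed against the Ensembl release 115 annotation, and sequence was read from the RefSeq Release 6 genome. Eligible sequence is every base that meets the same rule. A promoter or a replicate's region counted within 250 bp of the summit. Regions in replicates were also ranked, and the highest 3897 of each were used. Motif windows were 200 bp long, with the side window 500 bp to the right. Tests were the exact McNemar test, Fisher's exact test and an exact conditional test over 3 length classes, two-sided, with Benjamini-Hochberg adjustment and a threshold of 0.05. Peaks and genes are not biological replicates, so each p-value describes these lists. Python 3.11.15, NumPy 2.4.6, SciPy 1.17.1, pandas 2.3.3 and R 4.3.3 were used, and 10 of 10 checks on simulated data passed.

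The members and gene lists were chosen with earlier results of these data known. Named were the hosts of the 12 highest peaks, the 8 hosts with most peaks, the 3 peaks that differed most between replicates in each direction, and the 2 peaks nearest to the distance limit on each side. Up to 3 hosts per gene list and up to 6 words of smallest p in each direction were also named. Sequences shown were chosen among the highest peaks and those with the outward word on both sides. Alternatives varied the distance limit, the annotation, the side window, the height and the replicate. The result of 1 gene list and 1 sequence are not reported here.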

Additional observations from a re-analysis of the deposited data

How the results depend on the processing

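No paired analysis was possible because there is 1 group and no comparison between groups. Chosen after seeing the data were the distance classes, the division into 10 length classes or by TSS number, the motifs read backwards and all settings of the outward word. Among results that answer a comparison, 93 values under an alternative stayed within the limits set for them and 32 moved.
With the highest peak of each host only, 193 words of 6 bases passed in all, 98 higher and 95 lower, against 373, 167 and 206. Beyond 2000 bp 247 passed (131 lower), beyond 500 bp 564 (318 lower), and in the highest 50% of peaks 118 (70 higher, 48 lower). Motifs under summits numbered 1 with 1 peak per host, 3 beyond 2000 bp, 3 with the side window at 1000 bp and 2 in the highest 50%, against 5. GATA was not called with 1 peak per host (exact McNemar test, adjusted p = 0.388) or in the highest 50% (0.112), and the Twist E-box was lost under most settings (up to 0.463). Against intergenic distal peaks 0 motifs passed Fisher's exact test beyond 2000 bp (3 at an unadjusted p under 0.05) and 0 in the highest 50% (1), 5 passed beyond 500 bp, and 0 to 1 with a replicate left out (0 without replicate 3, 5 unadjusted).
The ratio of intronic to intergenic density was 0.709 between 10000 and 20000 bp and 2.38 beyond. The first-intron share was 62.5%, 51.8%, 42.1%, 30.9% and 22.6% over the 5 distance classes, 40.5% with exons merged over transcripts (23.7% of eligible sequence), 43.1% beyond 2000 bp and 52.0% beyond 500 bp. In the highest 50% the median height over that of all optimal peaks in the set, averaged over replicates, was 0.939 against 1.01, 441 peaks remained and 88 hosts held several. The outward word was at 21.5% between 0 and 150 bp, with 7.43% inward. Read backwards, the ratio of windows with the motif only at the summit to those with it only at the side turned to 1.61 for the Scalloped motif (exact McNemar test, adjusted p = 0.185) and to 3.30 for the Twist E-box (exact McNemar test, adjusted p = 2.2e-09). The Twist E-box read backwards is GTACAC, itself a leading word at summits. With either replicate's own highest regions alone, peaks numbered 814 to 883, the first-intron share was 47.9% to 48.7%, the density ratio 1.47 to 1.51, the odds ratio for a bound host promoter 3.07 to 3.31 and the outward word 16.5% to 17.3%, with 295 to 360 words passing. For the share of peaks among the highest regions of both replicates, the highest 50% gave no finite odds ratio against either other class.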
